A study of Mus musculus with 4 samples.

Results

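The comparison described here set 6-week-old MRL/lpr mice against 6-week-old C57BL/6 mice, class by class, in nuclei from whole kidney. It used 2 of the 4 libraries of the series, 1 per strain, and 17980 nuclei of the 39074 barcodes in all 4 libraries. A UMI (unique molecular identifier) stands for 1 captured RNA molecule. Nuclei of both strains had to hold at least as many UMIs as the shallowest barcode of the MRL/lpr library, the higher of both library minima, and at most 10% mitochondrial UMIs. This left 9364 MRL/lpr and 8616 C57BL/6 nuclei, and 1565 C57BL/6 barcodes lay under the floor. Both libraries came from female mice. The MRL/lpr strain carries the lpr mutation of the death receptor gene Fas on the MRL background, and C57BL/6 carries neither, so lpr and every other strain difference cannot be told apart. The labels do not state how many animals gave each library. Libraries of both strains at 10 weeks of age, made separately, are used below only to look up the same genes.

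MRL/lpr mice develop autoantibodies, enlarged lymphoid organs and immune-complex nephritis with age, and the strain is a long-used model of lupus nephritis. The nephron filters plasma at the podocyte-covered glomerulus and then recovers most of the filtrate in the proximal tubule. The thick ascending limb, distal convoluted tubule, connecting tubule and the collecting duct's principal and intercalated cells adjust salt, water and acid. A gene whose regulation or sequence differs between inbred strains can differ in all of these cell types, or only in one that uses a particular regulatory element.

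Each nucleus was given a class from raw UMIs of marker genes, and 15137 nuclei fell in 9 compared classes. Proximal tubule held 5460 MRL/lpr and 4034 C57BL/6 nuclei. Thick ascending limb held 525 and 475, distal convoluted tubule 409 and 674, and connecting tubule 622 and 641 in the same order. Principal cells numbered 158 and 138, intercalated cells 303 and 329, podocytes 105 and 168, endothelium 320 and 461, and stroma 76 and 239. Immune nuclei (26 and 17) were too few to compare. Of 36 marker genes kept out of the assignment, 31 were highest in their own class in both libraries. The libraries held 7660163 and 6440609 UMIs in kept nuclei, with medians of 714 and 676 UMIs a nucleus, and 132 barcode sequences occurred in both. Proximal genes not used for assignment were found in each of the other 8 classes, at 8.78% to 18.8% of their proximal level in MRL/lpr and at 7.40% to 14.4% in C57BL/6. Free RNA and doublets cannot be told apart in these values. A gene was taken to lie above this background in a class when its level there was more than 2 times what that share of its proximal level would give. In the MRL/lpr library, 55 UMIs of H2-Ea were found and in the C57BL/6 library 0, where 3 UMIs is the most a count of 0 allows. C57BL/6 mice are known to lack H2-Ea expression, so these counts match the strain labels.

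Levels are UMI counts scaled to 1000000 UMIs of the class (CPM), and differences are log2 ratios of MRL/lpr over C57BL/6, so that 1 is a 2-fold higher level in MRL/lpr. With 1 library a strain no difference has a replicate check and none was tested. The 95% intervals given come from the exact binomial distribution of the UMIs and cover counting error only. Genes with 30 or more UMIs over both libraries in a class were compared there, and a gene is called when its ratio is 2-fold or more. In all, 36250 pairs of a gene and a class were compared, 1448 were called higher and 1592 lower, and in 92.2% of the called pairs the interval lay on 1 side of equality.

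The share of genes that differed was alike in most classes. In proximal tubule, 4.41% of 12030 compared genes were called higher and 4.46% lower. In thick ascending limb the shares were 4.0% and 3.62% of 4423 genes, in distal convoluted tubule 2.99% and 4.3% of 5276, and in connecting tubule 3.73% and 3.84% of 6144. Principal cells had 5.98% higher and 4.55% lower of 836 genes, and intercalated cells 3.89% and 4.33% of 3416. Podocytes had 5.82% higher and 6.9% lower of 739 genes, and endothelium 3.43% and 4.12% of 2598. Stroma stood apart, with 4.82% higher and 11.2% lower of 788 genes, and it also had the fewest MRL/lpr nuclei. In stroma the interval lay on 1 side of equality for 89 of 126 called genes, against 92.2% of called pairs over all classes. Stroma held 33270 UMIs in MRL/lpr and 97486 in C57BL/6, and the part of this in the lower calls was not tested. The median log2 ratio over all compared genes lay between -0.04 and 0.02 in every class.

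**Figure D1:**
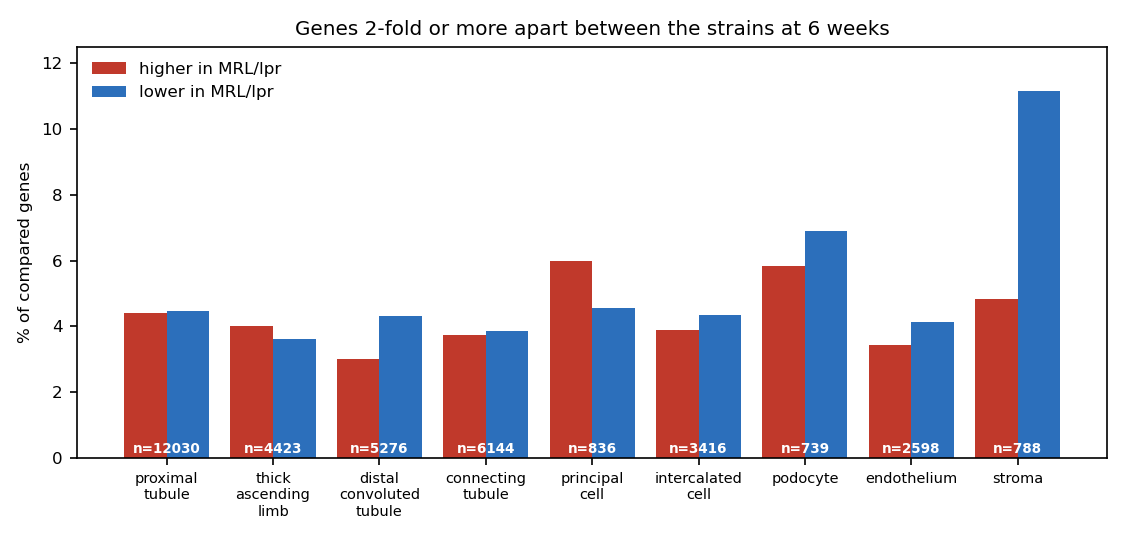
Percentage of compared genes that were 2-fold or more higher (red) or lower (blue) in MRL/lpr than in C57BL/6 at 6 weeks, in each of 9 cell classes, with the number of compared genes in white. The shares lie between 2.99% and 6.9% except for genes lower in stroma, at 11.2%.

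Genes called in one class were often not called in another, though more often than compared genes as a whole. Proximal tubule holds most of the UMIs, and of the 1068 genes called there 63.2% could be compared nowhere else. Of the 253 that could also be compared in connecting tubule, 115 (45.5%) were called there in the same direction and 5 in the opposite one. Of all genes compared in connecting tubule, 3.73% were called higher and 3.84% lower. For thick ascending limb the same count was 68 of 172 (39.5%), for endothelium 43 of 128 (33.6%) and for stroma 16 of 73 (21.9%). Among the 196 genes called in endothelium, 178 could be compared in proximal tubule, where 43 (24.2%) were called in the same direction and 110 (61.8%) lay within 1.5-fold. Of all genes compared in proximal tubule, 4.41% were called higher and 4.46% lower. In all, 12362 genes were compared in at least 1 class, 5321 of them in 1 class and 226 in all 9.

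Differences that held in most classes were few. A gene met this description when it was compared in 5 or more classes, called in the same direction in the majority of them and called in the opposite direction in none. Of 3363 genes compared in 5 or more classes, 2590 were called in no class and 565 in 1. The description was met by 34 genes higher in MRL/lpr (1.01%) and 28 lower (0.833%). Of these 62 genes, 20 were called in every class in which they could be compared, 11 of them higher and 9 lower. For 40 of the 62, only 5 classes gave a comparison.

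Colec12 showed the largest median ratio and was the only one of the 62 genes compared in all 9 classes. It encodes collectin-12, a scavenger receptor with a C-type lectin domain that is known from vascular endothelium and stromal cells. In MRL/lpr its level was 6065 CPM in proximal tubule, 8499.9 in thick ascending limb, 10459 in distal convoluted tubule, 9994 in connecting tubule, 9887 in principal cells and 10027 in intercalated cells. In C57BL/6 the same 6 classes held between 41.5 CPM (proximal tubule) and 88.2 CPM (principal cells). The Colec12 transcript thus made up 1.05% of all UMIs of MRL/lpr distal convoluted tubule and 0.00492% of those of C57BL/6. The log2 ratio was between 6.81 and 7.73 in these 6 tubular classes, and in proximal tubule it was 7.19 (interval 6.96 to 7.43), a 146-fold difference from 30567 and 157 UMIs.

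Outside the tubule the Colec12 ratio was smaller. Podocytes had 5772 CPM in MRL/lpr and 429 CPM in C57BL/6, a log2 ratio of 3.75 (3.24 to 4.30). Stroma had 3968 and 759 CPM, a ratio of 2.39 (1.96 to 2.82), and endothelium 2952 and 69.5 CPM, a ratio of 5.41 (4.62 to 6.33). In C57BL/6, stroma and podocytes therefore carried more Colec12 than every tubular class. In MRL/lpr stroma carried less than every tubular class, whereas podocytes lay close to proximal tubule (5772 and 6065 CPM) and below the other tubular classes. The ratio intervals of stroma and podocyte do not reach those of any tubular class. At 10 weeks the log2 ratio was 9.02 in proximal tubule, 3.51 in podocytes and 2.16 in stroma, the same order. The MRL/lpr level at 10 weeks was higher in podocytes (6305 CPM) than in proximal tubule (4827 CPM).

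**Figure D2:**
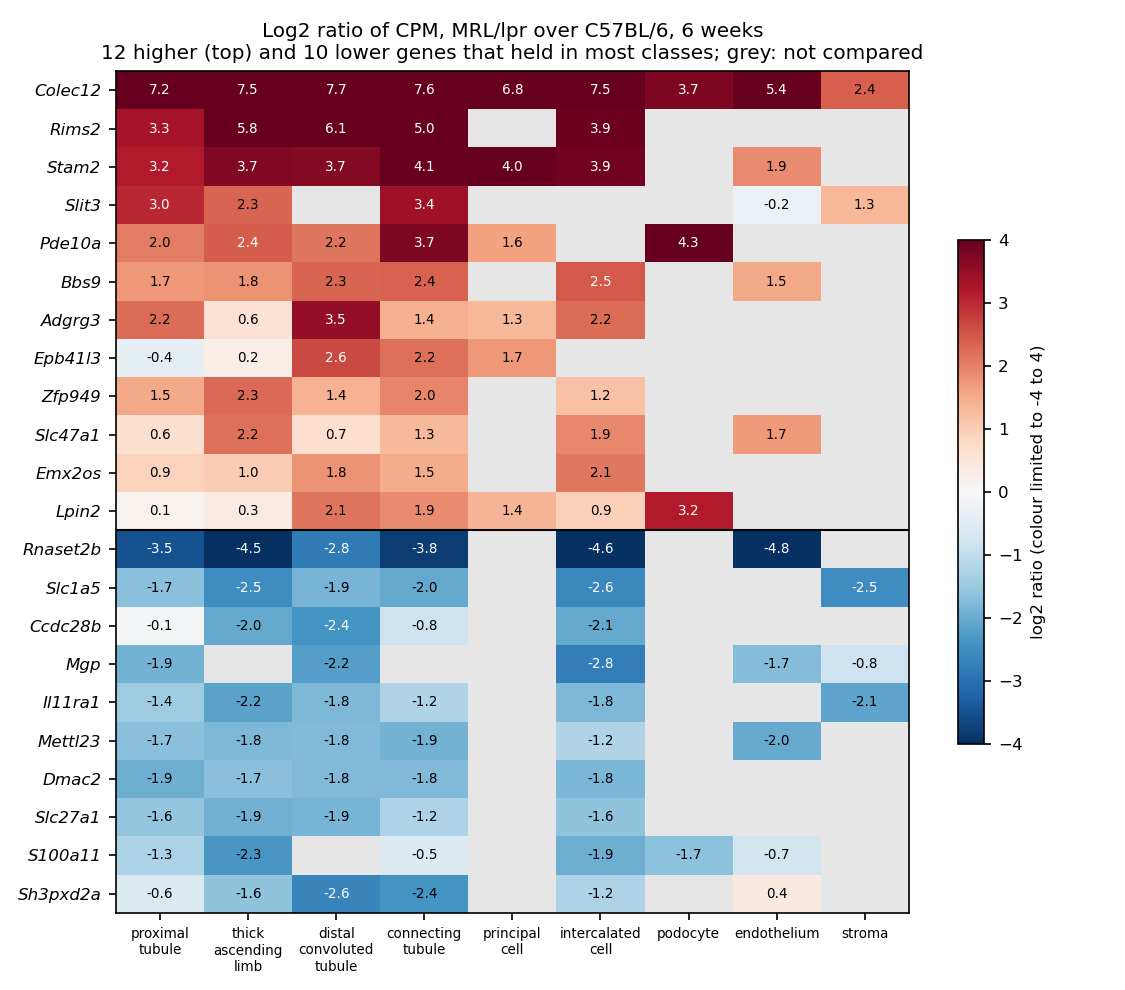
Log2 ratio of CPM (MRL/lpr over C57BL/6, 6 weeks) of 12 higher and 10 lower genes that held in most classes, in rows, across the 9 classes, in columns. Grey cells have under 30 UMIs, and the colour scale stops at 4 while the printed values do not: Colec12 runs from 2.4 in stroma to 7.7 in distal convoluted tubule.

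Next in size among the named higher genes were Rims2 and Stam2, both called in every class that could be compared. Rims2 encodes a scaffold of the zone where secretory vesicles fuse with the membrane. Its MRL/lpr level was between 177 CPM (distal convoluted tubule) and 329 CPM (intercalated cells) in 5 classes, and its C57BL/6 level between 2.59 and 21.5 CPM. The proximal log2 ratio was 3.31 (2.95 to 3.69), from 898 and 68 UMIs. The larger ratio of 5.76 (3.23 to 11.09) in thick ascending limb rests on 65 UMIs against 1. Stam2 encodes an adaptor that sorts ubiquitin-tagged receptors to lysosomes. It stood at 399 CPM in MRL/lpr and 43.9 CPM in C57BL/6 proximal tubule, and at 684 and 40.0 CPM in connecting tubule. The log2 ratio was 3.18 to 4.10 in 6 epithelial classes and 1.89 (0.80 to 3.11) in endothelium.

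Of the other 9 named higher genes, Bbs9, Pde10a and Zfp949 were called in every class compared. Bbs9, a subunit of the BBSome complex that carries membrane proteins in cilia, had log2 ratios of 1.52 in endothelium to 2.46 in intercalated cells, in 6 classes. Its levels in intercalated cells were 561 CPM in MRL/lpr and 102 CPM in C57BL/6. Pde10a, a phosphodiesterase of cyclic nucleotides, was at 1771 and 132 CPM in connecting tubule, at 3869 and 1271 CPM in principal cells and at 982 and 49.0 CPM in podocytes. Zfp949, a zinc finger gene, was at 317 and 66.0 CPM in thick ascending limb and at 138 and 48.4 CPM in proximal tubule.

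Adgrg3, Slit3, Epb41l3 and Lpin2 were called in some classes and not in others. Adgrg3, an adhesion G protein-coupled receptor, had a log2 ratio of 3.51 (2.27 to 5.03) in distal convoluted tubule and 0.57 (-0.03 to 1.19) in thick ascending limb. Slit3, a secreted guidance ligand, was at 60.3 CPM in MRL/lpr and 7.41 CPM in C57BL/6 proximal tubule. In endothelium, where both strains had more of it, Slit3 was at 250.3 and 294 CPM, a log2 ratio of -0.23 (-0.89 to 0.41). Epb41l3 encodes a protein that ties the membrane to the actin skeleton. It was 1083 and 173 CPM in distal convoluted tubule, a ratio of 2.64 (2.25 to 3.05), but 232 and 299 CPM in proximal tubule, a ratio of -0.37 (-0.49 to -0.25). Lpin2 encodes a phosphatidate phosphatase of lipid synthesis. In podocytes it was at 1439 and 159 CPM, a ratio of 3.17 (2.32 to 4.14), and in proximal tubule at 102 and 93.7 CPM, a ratio of 0.13 (-0.07 to 0.33). Emx2os, a transcript antisense to the Emx2 transcription factor gene, was above 0 in all 5 classes compared, and its ratio ran from 0.92 in proximal tubule to 2.10 in intercalated cells. Whether the counting used strand is not given in the sources used here, so its reads cannot be told apart from those of genes it overlaps.

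Slc47a1 met the rule only through levels that lie within the proximal background. This gene encodes MATE1, an exporter of organic cations at the apical membrane of proximal tubule. It was at 1687 and 1093 CPM there, a log2 ratio of 0.63, and at 172 and 37.1 CPM in thick ascending limb, a ratio of 2.21. In none of the 5 other classes compared did the Slc47a1 level exceed 2 times the background. Without the pairs that lie within the background, 30 genes held as higher and 27 as lower. Of the 34 higher genes 3 were predicted genes without a function name, and of these Gm3336 had a median log2 ratio of 5.45. Its proximal level was 186 CPM in MRL/lpr and 3.18 CPM in C57BL/6, a log2 ratio of 5.87 (5.06 to 6.83).

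The lower gene with the largest difference, Rnaset2b, has a near-identical copy, Rnaset2a, and the pair encodes lysosomal ribonuclease T2. The promoter windows of both genes are shown because they show how alike the copies are at their starts. They come from RefSeq on mouse build GRCm38.p6, run from 250 bases before to 50 after the annotated start on the gene's own strand, and lie at chr17:8147738-8148037 (minus strand, Rnaset2a) and chr17:6978610-6978909 (plus strand, Rnaset2b). The 2 windows share 255 bases, offset along the window, of which 254 are identical, and the capital letter marks the 1 base that differs.
Rnaset2a: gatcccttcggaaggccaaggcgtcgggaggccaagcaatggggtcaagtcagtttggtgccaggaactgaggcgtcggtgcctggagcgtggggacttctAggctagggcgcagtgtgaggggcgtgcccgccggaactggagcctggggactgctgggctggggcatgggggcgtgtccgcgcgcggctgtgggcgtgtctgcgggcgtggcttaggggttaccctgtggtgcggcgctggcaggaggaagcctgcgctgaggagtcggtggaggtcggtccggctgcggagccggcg
Rnaset2b: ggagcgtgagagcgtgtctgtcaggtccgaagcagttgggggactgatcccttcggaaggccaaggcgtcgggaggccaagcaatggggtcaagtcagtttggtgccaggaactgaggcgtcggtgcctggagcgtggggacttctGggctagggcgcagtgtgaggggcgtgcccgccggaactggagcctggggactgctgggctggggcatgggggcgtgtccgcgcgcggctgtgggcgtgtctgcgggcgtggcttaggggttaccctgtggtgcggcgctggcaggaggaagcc
Their longest coding transcripts in the GENCODE annotation matched at 2435 of 2448 aligned bases (99.5%). Counts of 1 copy may therefore be split with, or assigned to, the other.

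Rnaset2b was lower in MRL/lpr in all 6 classes compared, with log2 ratios from -2.84 in distal convoluted tubule to -4.79 in endothelium. In thick ascending limb its level was 13.8 CPM in MRL/lpr and 309 CPM in C57BL/6. Rnaset2a went the other way, with ratios of 0.74 to 1.81 in 8 classes, and was named after its values were seen. It stood at 654 CPM in MRL/lpr and 281 CPM in C57BL/6 thick ascending limb. Summed over both copies, the level was 667.6 and 590.1 CPM there, a log2 ratio of 0.18. The sum had ratios of -0.03 in intercalated cells, -0.01 in principal cells, 0.05 in connecting tubule, 0.06 in endothelium and 0.35 in distal convoluted tubule, and of 0.64 in proximal tubule. Podocytes and stroma had few UMIs of the pair in MRL/lpr (9 and 13), and the sum had ratios of -0.84 and -0.39 there. The division differed more: in the 7 classes with 22 or more summed UMIs in each strain, Rnaset2b held 1.33% to 4.79% of the pair's UMIs in MRL/lpr and 38.4% to 72.7% in C57BL/6. At 10 weeks the sum was higher in MRL/lpr in several classes, with ratios of 1.11 in distal convoluted tubule, 0.89 in thick ascending limb and 0.81 in connecting tubule. Rnaset2b there held 1.23% to 4.67% of the pair in MRL/lpr and 45.0% to 45.5% in C57BL/6.

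The other lower genes named were mostly at moderate levels in several epithelia. Slc1a5, a transporter of glutamine and other neutral amino acids, was at 92.9 CPM in MRL/lpr and 516 CPM in C57BL/6 thick ascending limb and at 75.8 and 457 CPM in intercalated cells. Its log2 ratios lay between -1.68 and -2.59 in 6 classes. Dmac2, an assembly factor of the mitochondrial respiratory chain, was at 33.7 and 129 CPM in proximal tubule, and its 5 ratios fell in the narrow range of -1.66 to -1.94. Slc27a1, a fatty acid transport protein, ranged from -1.22 to -1.92, and the methyltransferase-like gene Mettl23 from -1.22 to -2.02. Il11ra1, a receptor subunit for interleukin 11, was lower in all 6 classes compared, most in thick ascending limb at -2.16 (-3.60 to -0.91).

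Ccdc28b, S100a11 and Sh3pxd2a were unequal between classes. Ccdc28b, a coiled-coil gene linked to ciliary function, was at 35.3 and 186 CPM in distal convoluted tubule, a log2 ratio of -2.40 (-3.59 to -1.40). In proximal tubule it was at 21.4 and 22.5 CPM, a ratio of -0.07 (-0.49 to 0.36). S100a11, a calcium-binding protein, had ratios of -0.54 in connecting tubule to -2.32 in thick ascending limb. Sh3pxd2a encodes an adaptor of invasive membrane protrusions. Its ratio was -2.65 (-4.60 to -1.17) in distal convoluted tubule and 0.38 (-0.63 to 1.39) in endothelium.

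Mgp, in contrast, had its highest level in stroma in both strains and its smallest strain ratio there. It encodes matrix Gla protein, an inhibitor of calcification, and stood at 4148 CPM in MRL/lpr and 7304 CPM in C57BL/6 stroma, a log2 ratio of -0.82 (-1.09 to -0.55). In proximal tubule it was at 15.9 and 58.7 CPM, a ratio of -1.89 (-2.28 to -1.51). Stromal nuclei made up 0.812% of MRL/lpr and 2.77% of C57BL/6 nuclei, and the part of this in the tubular values was not tested.

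Where the 62 genes lie relative to each other was looked up in the RefSeq gene order of GRCm38.p6. Among 61 that could be placed, 10 (16.4%) had another of the 62 as next neighbour among the genes compared, against 3.39% of 3272 other genes. Among these, Epb41l3 and Lpin2 are neighbours and both higher, as are Gm3336 and Pde4c. Il11ra1 and Vcp, the gene of an ATPase that extracts ubiquitinated proteins, are neighbours and both lower. Rnaset2a and Rnaset2b, also neighbours, differ in direction. Pde4c and Vcp were named for their position, after their values were seen.

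The libraries at 10 weeks gave the same genes again for part of the set. All 62 genes were compared at 10 weeks in at least 1 class, and in 55 the median log2 ratio had the same sign as at 6 weeks. Of the 62, 44 were compared in 5 or more classes at 10 weeks, and 41 of these kept the sign, against 63.9% of all 2714 genes compared in 5 or more classes at both ages. Among 2865 genes compared in 5 or more classes at 10 weeks, 61 (2.13%) held in most classes, and 23 of the 44 were among them in the same direction, 13 higher and 10 lower. Colec12, Rims2, Stam2, Bbs9, Adgrg3, Epb41l3 and Zfp949 were again higher in most classes, and Rnaset2b, Slc1a5, Mettl23, Dmac2, Slc27a1 and S100a11 again lower. Pde10a was higher in 2 of 6 classes at 10 weeks, and its median was 2.29 at 6 weeks and -0.14 at 10 weeks. At 10 weeks it stood at 1047 CPM in MRL/lpr and 208 CPM in C57BL/6 podocytes and at 704 and 319 CPM in distal convoluted tubule. In principal cells it was lower, at 2932 and 5880.0 CPM. For Mgp the median changed from -1.89 to 0.77. The change between ages was not tested.

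**Figure D3:**
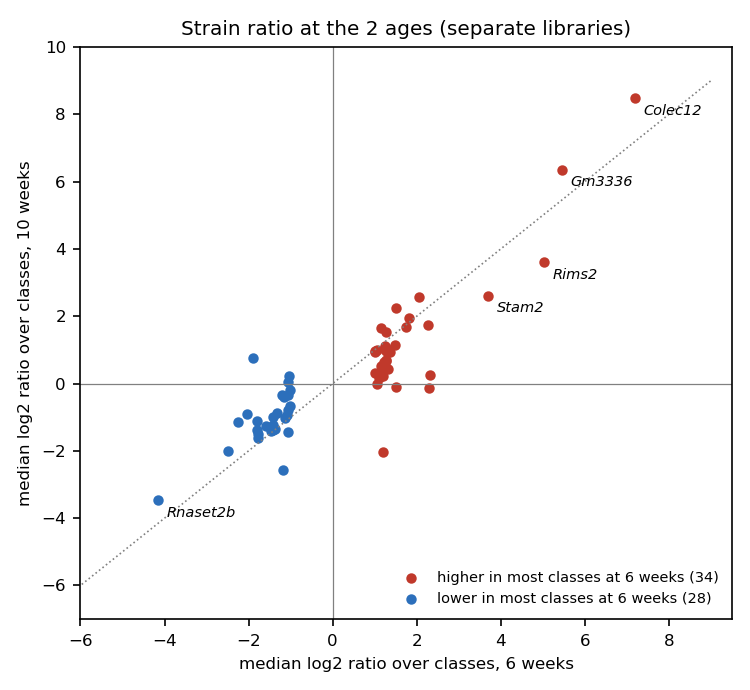
Median log2 ratio (MRL/lpr over C57BL/6) over the classes compared, at 6 weeks (horizontal) and 10 weeks (vertical), for the 34 genes higher (red) and 28 lower (blue) in most classes at 6 weeks; the dotted line marks equal values. Of these genes, 55 keep their sign and 7 do not.

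Being called in 1 class, as 565 genes were, does not show that a gene is alike in the others, so differences limited to 1 class were sought with a stricter rule. It asked for a ratio of 4-fold or more with the interval beyond 2-fold in 1 class, and a ratio within 1.5-fold in each of at least 3 other classes. Among 4465 genes compared in 4 or more classes it was met by 8 (0.179%), of which 4 were in proximal tubule, 2 in podocytes and 2 in stroma.

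In proximal tubule, Ddit4l and Akr1c19 were higher in MRL/lpr and Trpm3 and Kcnk1 lower. Ddit4l, an inhibitor of the growth regulator mTOR, was at 38.7 CPM in MRL/lpr and 3.44 CPM in C57BL/6, a log2 ratio of 3.49 (2.68 to 4.43). Its ratios in connecting tubule, distal convoluted tubule and thick ascending limb were 0.22, 0.20 and 0.03. Akr1c19, an aldo-keto reductase, was at 155 and 37.3 CPM in proximal tubule, a ratio of 2.06 (1.80 to 2.33), and at 124 CPM in both strains in thick ascending limb. Trpm3, a cation channel, was at 114 CPM in MRL/lpr and 759.7 CPM in C57BL/6 proximal tubule, a ratio of -2.74 (-2.87 to -2.61) from 574 and 2871 UMIs. Intercalated cells held 490.5 and 499.9 CPM of Trpm3, a ratio of -0.03 (-0.45 to 0.40). Kcnk1, a potassium channel, was at 2.38 and 18.3 CPM in proximal tubule, a ratio of -2.94 (-3.96 to -2.04), and at 138 and 182 CPM in thick ascending limb. At 10 weeks the proximal ratio was -3.15 for Kcnk1 and 1.37 for Akr1c19, but -0.09 for Ddit4l and -0.40 for Trpm3.

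In podocytes, Nsf and Samd12 were lower in MRL/lpr. Nsf, an ATPase that takes apart membrane fusion complexes, was at 123 CPM in MRL/lpr and 1177 CPM in C57BL/6 podocytes, a log2 ratio of -3.26 (-4.61 to -2.16). In the 6 other classes compared, Nsf ratios lay between -0.46 and 0.35. Podocytes of C57BL/6 thus held more Nsf than any other class, whereas those of MRL/lpr held a level like the rest. Samd12, a gene with a sterile alpha motif domain, was at 87.7 and 687 CPM in podocytes, a ratio of -2.97 (-4.65 to -1.66). Endothelium, where it was also abundant, had 942 and 844 CPM. At 10 weeks the podocyte ratios of Nsf and Samd12 were -3.40 and -3.19.

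In stroma, Gsdme was not found in MRL/lpr (0 UMIs) and had 40 UMIs, or 410.3 CPM, in C57BL/6. Set at the 3 UMIs that a count of 0 allows, its level was at least 4.55-fold lower, and the 95% interval, which also takes in the counting error of C57BL/6, reached 3.53-fold. Gsdme encodes gasdermin E, a pore-forming protein of cell death, and its ratio was 0.18 in proximal tubule. Phactr1, a regulator of protein phosphatase 1 and actin, was at 571 and 113 CPM in stroma, a log2 ratio of 2.34 (1.19 to 3.56) from 19 and 11 UMIs. In connecting tubule, with 2598 and 2006 UMIs, the Phactr1 ratio was 0.31. At 10 weeks stromal Phactr1 went the other way, at 179 CPM in MRL/lpr and 306 CPM in C57BL/6, from 6 and 8 UMIs. Stromal Gsdme was then at 59.5 and 230 CPM, from 2 and 6 UMIs.

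**Figure D4:**
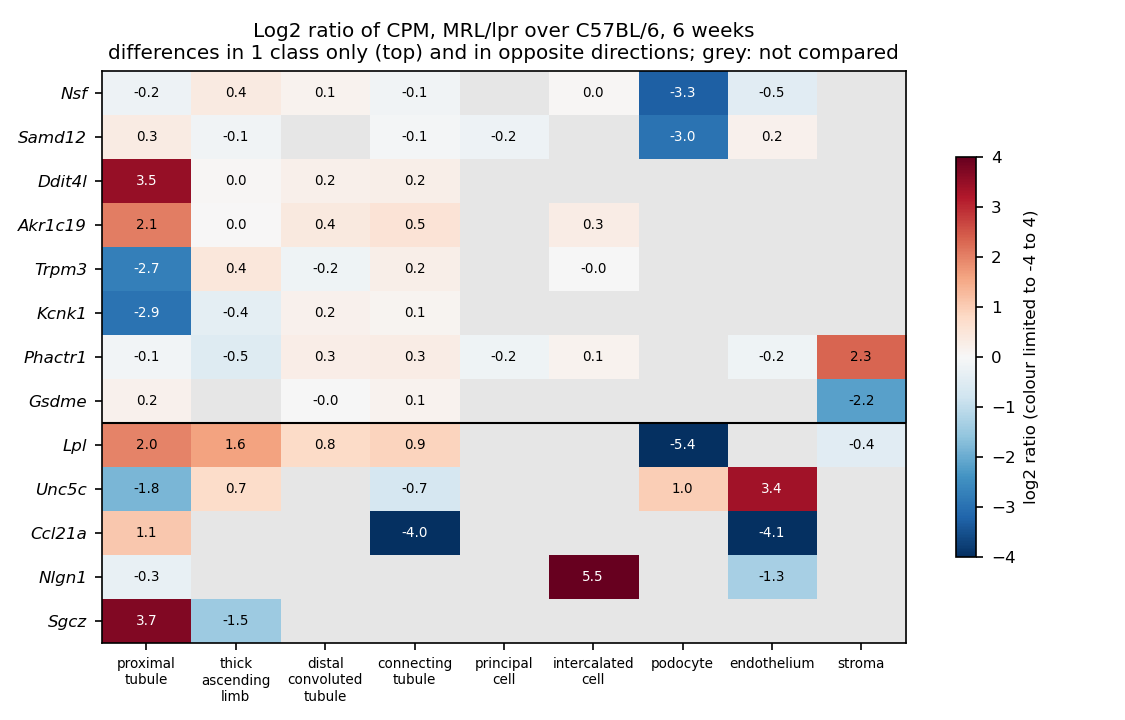
Log2 ratio of CPM (MRL/lpr over C57BL/6, 6 weeks) of the 8 genes that differed in 1 class only (above the line) and of the 5 genes with the most separated opposite differences (below), across the 9 classes. Grey cells have under 30 UMIs; Nsf stands at -3.3 in podocytes and between -0.5 and 0.4 elsewhere, and Gsdme in stroma is a bound.

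A further 48 of 7041 genes compared in 2 or more classes (0.682%) were called in opposite directions in 2 classes, 39 of them with both intervals on their own side of equality. Lpl, the lipoprotein lipase, was at 159.9 CPM in MRL/lpr and 40.5 CPM in C57BL/6 proximal tubule. In podocytes it was at 17.5 and 760.2 CPM, a log2 ratio of -5.44 (-10.76 to -2.91) from 1 and 62 UMIs. Unc5c, a netrin receptor, was at 604 and 58.8 CPM in endothelium, a ratio of 3.36 (2.45 to 4.42), and at 126 and 454 CPM in proximal tubule, a ratio of -1.84 (-1.98 to -1.71). Nlgn1, an adhesion molecule best known from synapses, was at 475 and 10.8 CPM in intercalated cells and at 81.0 and 203 CPM in endothelium. Sgcz, a sarcoglycan of the muscle membrane complex, was at 31.2 and 2.38 CPM in proximal tubule and at 68.8 and 189.8 CPM in thick ascending limb. Ccl21a, a chemokine of lymphatic endothelium, had 0 UMIs in MRL/lpr and 72 in C57BL/6 endothelium, at least 17.4-fold lower, and a ratio of 1.07 (0.19 to 2.03) in proximal tubule from 42 and 15 UMIs. In connecting tubule Ccl21a was also lower in MRL/lpr, at 7.17 and 112 CPM from 3 and 45 UMIs. The part of free RNA and mixed barcodes in the tubular values of Ccl21a was not tested.

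Gene lists give the same comparison by function. Each is described by its counts and its median log2 ratio, beside the median over all genes of the class, which lay within 0.04 of 0 everywhere. Genes of the interferon gamma response and antigen processing, which load peptides on MHC molecules and defend cells against infection, were higher in proximal tubule in 9 of 18 compared members and lower in none, with a median of 1.22. In endothelium 3 of 11 were higher and none lower, with a median of 0.62, and in connecting tubule none of 5 was called, with a median of 0.69. B2m, the light chain of MHC class I, was at 737 CPM in MRL/lpr and 266 CPM in C57BL/6 proximal tubule, a log2 ratio of 1.47 (1.37 to 1.57). Its ratio was above 0 in all 9 classes, from 0.49 (-0.07 to 1.02) in stroma to 1.81 (0.89 to 2.85) in principal cells. Tapbp, a peptide-loading chaperone, had ratios of 0.97 in proximal tubule and 0.09 in endothelium, and Psme2, a proteasome activator subunit, 0.27 and -0.65. Irf1 and Igtp, named after their values were seen, had proximal ratios of 2.11 and 2.79, and Irf1 in endothelium 0.01 (-0.76 to 0.76). The type I interferon list showed no such shift, with medians of 0.08 over 10 members in proximal tubule and 0.35 over 8 in endothelium.

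MHC class II genes, which present antigen to helper T cells, were higher in 5 of 6 compared members in proximal tubule (median 1.58) and in 4 of 4 in endothelium (median 2.37). Cd74, the invariant chain, was at 336 and 80.4 CPM in proximal tubule and at 1855 and 278 CPM in endothelium, log2 ratios of 2.06 (1.89 to 2.24) and 2.74 (2.30 to 3.20). In principal cells there were 30 UMIs of Cd74 in MRL/lpr and 0 in C57BL/6, so the level was at least 7.80-fold higher. In intercalated cells Cd74 was lower, at 55.6 and 139.8 CPM, a ratio of -1.33 (-2.49 to -0.26). H2-Aa, a class II chain, had ratios of 1.90 in proximal tubule, 2.00 in endothelium, 1.28 in thick ascending limb and 0.96 in connecting tubule. Immune markers not used for assignment summed to 108 CPM in MRL/lpr and 32.5 CPM in C57BL/6 proximal tubule and to 397 and 449 CPM in endothelium, and their part in these ratios was not tested. At 10 weeks the class II median was 0.21 in proximal tubule and 2.11 in endothelium.

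Class I heavy chains did not differ in 1 direction: of 4 compared in podocytes 2 were higher and 2 lower, as were 2 and 2 of 7 in endothelium. H2-D1 was higher in podocytes at 1999.9 and 564 CPM, a log2 ratio of 1.83 (1.32 to 2.35), and in connecting tubule stood at 179 and 195 CPM, a ratio of -0.12. H2-K1 was at 3658 and 1710.2 CPM in endothelium, a ratio of 1.10, and at 186 and 314 CPM in thick ascending limb, a ratio of -0.75. H2-Q7, named after its values were seen, was at 35.1 CPM in MRL/lpr and 3629.5 CPM in C57BL/6 podocytes, a ratio of -6.69 (-9.75 to -4.83) from 2 and 296 UMIs. H2-Q6 had 0 UMIs in MRL/lpr and 152 in C57BL/6 podocytes, at least 35.4-fold lower. MHC genes are highly variable between strains and have near-identical copies, so counts of each of these may be split among them or lost.

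Mitochondrially encoded transcripts, which in nuclei come from adhering cytoplasm, were lower in all 7 compared members in MRL/lpr podocytes, with a median log2 ratio of -1.91. In stroma 3 of 7 were lower (median -0.99). In proximal tubule none of 11 was called, with a median of 0.44. The transcript mt-Co3, a subunit of cytochrome c oxidase, was at 737 CPM in MRL/lpr and 2514 CPM in C57BL/6 podocytes and at 639 and 511 CPM in proximal tubule. With at most 5% mitochondrial UMIs in a nucleus, the podocyte median was -1.54. Nuclear genes of the respiratory chain had a median below 0 in all 9 classes, from -0.44 to -0.15, and 25 of their 468 pairs (5.34%) were called. For cytoplasmic ribosomal proteins, 16 of 462 pairs (3.46%) were called. Over all genes and classes 8.39% of pairs were called. At 10 weeks the median of the mitochondrially encoded transcripts was below 0 in every class. It was then -3.16 in podocytes, -0.56 in stroma and -1.31 in proximal tubule.

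Glucocorticoid and fasting response genes were lower in 5 of 12 members in proximal tubule, with a median of -0.71, where 4.46% of all genes were called lower. Over 9 classes, 10 of their 56 pairs (17.9%) were called lower and 0 higher, while 8.39% of all pairs were called in either direction. Fkbp5, a cochaperone induced by glucocorticoids, was at 158 CPM in MRL/lpr and 427 CPM in C57BL/6 proximal tubule, a log2 ratio of -1.43 (-1.56 to -1.31). It was also called lower in endothelium (-1.28) and connecting tubule (-1.15), but its ratio was 0.02 (-0.56 to 0.61) in intercalated cells. Zbtb16, a transcription factor of the same list named after its values were seen, went from -2.51 in proximal tubule to 0.08 in intercalated cells. The clock gene Arntl, likewise named after its values were seen, differed in direction: its ratio was 1.04 (0.85 to 1.23) in proximal tubule and 1.07 (0.08 to 2.14) in intercalated cells, against -1.25 (-1.86 to -0.67) in connecting tubule and -1.09 (-1.83 to -0.39) in distal convoluted tubule. The hour of collection is not given in the labels. The heat shock chaperone Hspa8 was lower in thick ascending limb, at 79.1 and 239 CPM, a ratio of -1.60 (-2.36 to -0.88), and in intercalated cells at -1.41, and its list had 3 of 34 pairs (8.82%) called in all, near the 8.39% of all pairs. Fatty acid oxidation genes were lower in 3 of 18 members in proximal tubule, with a median of -0.44, where 4.46% of all genes were called lower. Over all classes 7 of their 68 pairs (10.3%) were called, all lower, near the 8.39% of all pairs.

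**Figure D5:**
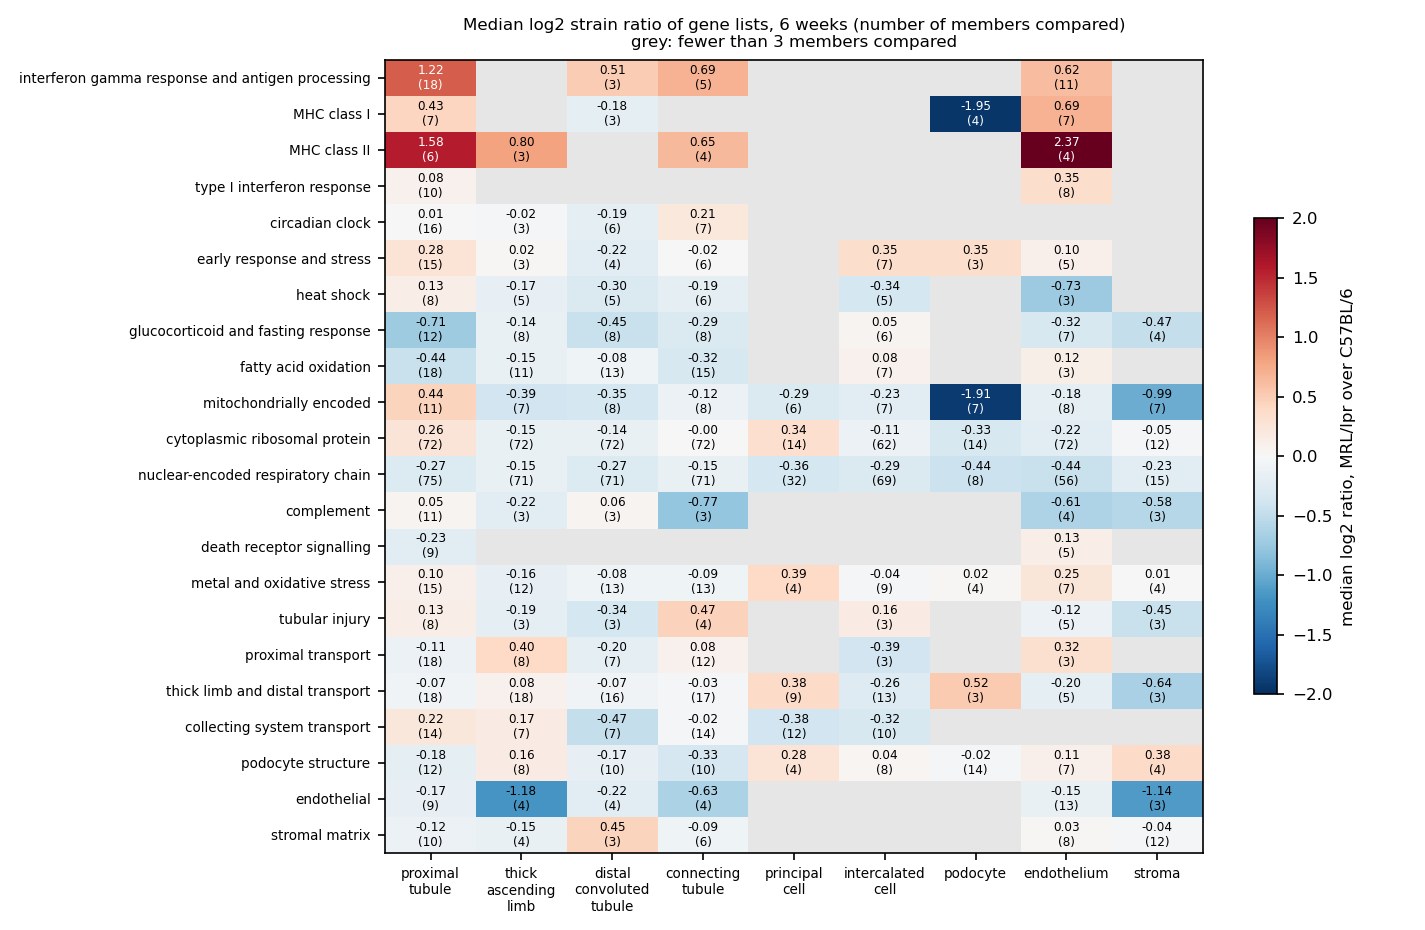
Median log2 ratio (MRL/lpr over C57BL/6, 6 weeks) of the members of 22 gene lists, in rows, in each of 9 classes, in columns, with the number of members compared in parentheses; grey cells have fewer than 3. MHC class II in endothelium has the highest median (2.37), and MHC class I (-1.95) and mitochondrially encoded transcripts (-1.91) in podocytes the lowest.

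Few transport genes were called in proximal tubule, thick ascending limb and distal convoluted tubule, where few genes of any kind were called. Of all compared genes, 4.41% were called higher and 4.46% lower in proximal tubule. The shares were 4.0% and 3.62% in thick ascending limb and 2.99% and 4.3% in distal convoluted tubule. Lists of 16 to 18 genes are too short to set their counts apart from these shares. Among 18 proximal transport genes compared in proximal tubule, only Slc5a12, a lactate and monocarboxylate transporter, was called, at 1486 CPM in MRL/lpr and 4364 CPM in C57BL/6, a log2 ratio of -1.55 (-1.59 to -1.51). None of 18 thick limb and distal transport genes was called in thick ascending limb, and none of 16 in distal convoluted tubule. Stk39, the SPAK kinase that activates salt cotransporters and named after its values were seen, was at 53.8 and 347 CPM in proximal tubule, a ratio of -2.69 (-2.89 to -2.50). In distal convoluted tubule, where SPAK acts on the thiazide-sensitive cotransporter, it was at 816 and 787 CPM, a ratio of 0.05 (-0.21 to 0.31). Of 12 collecting system transport genes compared in principal cells, 2 were higher and 2 lower, against 5.98% and 4.55% of all genes there. The higher ones were Kcnj1, a potassium channel, at 675 and 212 CPM (ratio 1.67) and Car2, a carbonic anhydrase, at 441 and 194 CPM (1.18), from 12 and 11 UMIs in C57BL/6. Lower were Scnn1a, a subunit of the epithelial sodium channel, at 193 and 547 CPM (-1.50) and Rhcg, an ammonia channel, at 537 and 1800.0 CPM, a ratio of -1.74 (-2.32 to -1.20). Kcnj1, Car2 and Scnn1a were named after their values were seen. Atp6v0a4, a proton pump subunit, was at 535 and 1186 CPM in proximal tubule, a ratio of -1.15 (-1.22 to -1.08), and at 1769.7 and 1892 CPM in intercalated cells. Spp1, osteopontin, which rises in injured tubules, was above 0 in all 7 classes compared and was called in 2: distal convoluted tubule (1.08) and endothelium (1.17). The other members of the tubular injury list gave 26 pairs, of which 1 was called higher and 1 lower. The lower one was Tmsb10, an actin-binding peptide, at 228 CPM in MRL/lpr and 1030.0 CPM in C57BL/6 podocytes, a ratio of -2.18 (-3.14 to -1.32).

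Some list members could be compared in 1 class alone. Nxpe3, of a neurexophilin-like family, was at 2.98 CPM in MRL/lpr and 51.6 CPM in C57BL/6 proximal tubule, a log2 ratio of -4.12 (-4.98 to -3.36). Its relative Nxpe4 had 0 and 35 UMIs in endothelium, at least 8.47-fold lower. Among genes that earlier accounts of proximal tubule had picked out in these libraries, 18 were compared there and all were called, 10 higher and 8 lower, which the way they were picked fixes. Beside Colec12, only Rab6b, a GTPase of Golgi traffic, could be compared in another class. Its ratio was -5.77 in proximal tubule, from 1 and 41 UMIs, and -0.89 (-1.78 to -0.04) in thick ascending limb at 68.8 and 127.9 CPM.

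Fas, the gene that carries the lpr insertion, was at 16.9 and 12.7 CPM in proximal tubule and at 545 and 299 CPM in endothelium, log2 ratios of 0.41 (-0.12 to 0.95) and 0.86 (0.34 to 1.39). Counts over the whole gene do not show the insertion and check nothing about it. No pair of the death receptor list was called among 19, where 8.39% of all pairs were.

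Podocyte structure genes had a median of -0.02 over 14 members in podocytes, and endothelial genes a median of -0.15 over 13 in endothelium, each with 1 member called in each direction. Endothelial genes were lower in thick ascending limb in 4 of 4 members, with a median of -1.18, and Plvap, the diaphragm protein of fenestrated vessels, was at 34.4 CPM in MRL/lpr and 136 CPM in C57BL/6 there against 3629 and 4163 CPM in endothelium. Of kept nuclei, 3.42% in MRL/lpr and 5.35% in C57BL/6 were endothelial. Without the UMI floor the C57BL/6 share was 13.4%, since 904 endothelial barcodes of that library lay under the floor and none of MRL/lpr did. The part of free endothelial RNA in the thick ascending limb values was not tested. Over all deposited barcodes, before filtering, haemoglobin transcripts summed to 487 UMIs in the MRL/lpr and 4 in the C57BL/6 library. Among kept proximal tubule nuclei Hba-a1 was at 109 and 1 UMIs.

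Class shares are given for the 1 library of each strain, with intervals that cover the counting of nuclei only and not the spread between animals, so no difference in shares was tested. Proximal tubule made up 58.3% of MRL/lpr nuclei (exact Clopper-Pearson interval 57.3% to 59.3%) and 46.8% of C57BL/6 nuclei (45.8% to 47.9%). Stroma made up 0.812% (0.640% to 1.01%) and 2.77% (2.44% to 3.14%), podocytes 1.12% and 1.95%, and distal convoluted tubule 4.37% and 7.82%. Shares of principal cells were 1.69% and 1.60%, and of thick ascending limb 5.61% and 5.51%. Dissection and recovery of nuclei can set such shares, and fewer cells cannot be told apart from poorer recovery. At 10 weeks stroma made up 0.886% and 0.716%, and proximal tubule 60.3% and 47.9%.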

How the data were processed

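Single-nucleus RNA of kidney was measured in 4 libraries, 1 for each strain and age. The matrices deposited by the authors hold raw UMI counts. Per the file headers they were written by Cell Ranger 5.0.0, while the submitters' processing notes name version 3.1.0. The sources used here do not give genome build, intron counting or the rule for calling barcodes. The matrices list 25636 genes, and 27 symbols that stand on several gene IDs were kept apart by ID.

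Barcodes with at least the lowest UMI total of the 6-week MRL/lpr library and at most 10% mitochondrial UMIs were kept. A nucleus took a class when that class's markers held 3 or more UMIs from 2 or more genes and at least 2 times the UMIs of the markers of every other class. In the 6-week libraries 1360 MRL/lpr and 1440 C57BL/6 nuclei took none, of which 572 and 568 had markers of several classes. No doublet caller was run and free RNA was not subtracted. UMIs were summed by class and library and scaled to 1000000. A count of 0 in 1 library was set at 3 UMIs and given as a bound. The ratios and the rules for genes that held in most classes or in 1 class were run on simulated class sums. Class assignment was not run on simulated nuclei. Python 3.11.15, numpy 2.4.6, scipy 1.17.1 and pandas 2.3.3 were used.

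Genes named are the 12 higher and 12 lower with the largest median among those that held in most classes, predicted genes left out; for differences in 1 class, up to 3 each way per class; the 5 most separated opposite genes; and the 3 members of each list with most UMIs, with other names marked where they occur. Some genes that the rule takes are not reported here. The comparison, its class rules and all gene lists were chosen with earlier results of these data known. Alternatives were the UMI floor, thinning every nucleus to that floor, the mitochondrial limit, marker and gene minimums, centring, a prior count, the fold and the proximal background.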

Additional observations from a re-analysis of the deposited data

Results flagged for a closer look

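Genes that went in opposite directions in 2 classes are given here with both log2 ratios (MRL/lpr over C57BL/6, 6 weeks). The difference between the classes was not tested, since each strain has 1 library. For Lpl the ratio was 1.98 in proximal tubule and -5.44 in podocytes, and at 10 weeks 1.55 and -3.65. For Unc5c it was 3.36 in endothelium and -1.84 in proximal tubule, and at 10 weeks 3.40 and -1.44. For Sgcz it was 3.71 in proximal tubule and -1.46 in thick ascending limb, and at 10 weeks 3.80 and -1.21. For Nlgn1 it was 5.47 in intercalated cells and -1.33 in endothelium, and at 10 weeks 6.77 and 0.32. For Ccl21a it was 1.07 in proximal tubule and a bound of -4.12 in endothelium, and at 10 weeks under 30 UMIs were found in either class. Endothelium at 10 weeks held 0 UMIs of Ccl21a in MRL/lpr and 1 in C57BL/6, so the endothelial difference was seen at 6 weeks only. Connecting tubule, where Ccl21a was also lower in MRL/lpr at 6 weeks (3 and 45 UMIs), held 0 UMIs in both strains at 10 weeks.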

How the results depend on the processing

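No paired analysis was possible because each strain has 1 library at each age and the labels carry no replicate numbers. Counts of genes depended on depth and on the minimum number of UMIs. The 34 genes higher and 28 lower in most classes became 19 and 15 among nuclei with 500 or more UMIs (27 of them among the original 62), 10 and 10 after thinning to the UMI floor (12 of the 62), 18 and 11 with a gene minimum of 50 UMIs (27), 6 and 1 with 100 UMIs (7), and 9 and 10 when 3-fold was asked for (19). The 8 genes in 1 class only became 2, 4, 3 and 0 under the first 4 of these. Pairs called higher (1448) and lower (1592) became 812 and 810 after thinning, 800 and 810 with 50 UMIs, 415 and 359 with 100 UMIs, and 473 and 499 at 3-fold. Each of these settings leaves fewer nuclei, UMIs or genes, or asks for a larger ratio. Colec12, Stam2, Bbs9 and Pde10a held in most classes under all 12 alternatives, and Gm3336, Pde4c, Dmac2 and Slc1a5 under 11. Nsf and Trpm3 held in 1 class only under 9 of 11, and the stroma genes Gsdme and Phactr1 under 6, the fewest. Among 1725 ratios of named genes under alternatives, 36 left the interval of the reported value. None whose reported value was 2-fold or more reversed, and a change of sign in smaller ratios was not counted. The median log2 ratio of the list of genes from earlier accounts reversed in endothelium, from 5.41 (1 member compared) to -0.15 without a UMI floor, where another member entered. In podocytes the mitochondrially encoded median ran from -2.40 to -1.54. Depth limits classes such as stroma, principal cells and podocytes to the 739 to 836 genes with most UMIs.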
